A study of Plutella xylostella with 12 samples.

Results

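ND1, ND2, ND3, ND4, ND4L, ND5 and ND6 are the mitochondrial genes for subunits of NADH dehydrogenase, and their mRNAs were followed in larvae of the diamondback moth, Plutella xylostella. The genes were chosen by name among the rows of the mitochondrial chromosome, which gave 7 of the 19364 features listed. The same chromosome lists 6 other protein-coding genes, COX1, COX2, COX3, CYTB, ATP6 and ATP8. RNA was sequenced from whole larval bodies of a laboratory population kept on cabbage, with 8 larvae pooled per library. All larvae grew at 25 °C until early in the third instar, and the groups then either stayed at 25 °C or went to 10 °C until the middle of the fourth instar. Each of the 4 groups, female at 25 °C, female at 10 °C, male at 25 °C and male at 10 °C, has 3 libraries, and the female 25 °C libraries carry the replicate numbers 1, 2 and 4. Temperature and the time larvae took to reach the sampled stage cannot be told apart.

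NADH dehydrogenase, or complex I, is the entry point of electrons from NADH into the respiratory chain, and it pumps protons across the inner mitochondrial membrane. It is assembled from nuclear-encoded subunits and from the mitochondrially encoded ones described here, which all lie in the membrane arm. Mitochondrial genes are transcribed as long precursors that are cut into shorter mRNAs, so neighbouring genes on a strand share precursors while their mRNAs can differ in level.

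Total gene reads per library ranged from 10183278 to 30106219. All mitochondrial mRNAs together took 4.09% to 12.3% of gene reads, and the ND genes took 0.30% to 1.45%, which is 42931 to 202273 reads per library. In 2 libraries the genes that mark males went against the label. Of 395 genes high in male 25 °C libraries and low in female 25 °C libraries, the median gene stood at 33.6% of its male 25 °C mean in female 10 °C replicate 3 and at 0.0969% in male 10 °C replicate 3, where the other male 10 °C libraries had 34.8% and 55.5%. In female 10 °C replicate 2 it stood at 8.86%, against 0 in replicate 1. Among the female 25 °C libraries, which helped to choose these genes, it stood at 2.15% in replicate 2 and at 0 in replicates 1 and 4. Sex is used below as the label gives it. The fitted comparisons that include 10 °C libraries are also given without the 2 libraries, or without all 3 of these 10 °C libraries.

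The ND genes sit on both strands of the mitochondrial chromosome, NC_025322 in the deposited tables. ND2 (bases 252 to 1268), ND3 (5644 to 5997) and ND6 (10076 to 10609) lie on the plus strand with all 6 other mitochondrial protein-coding genes. ND5 (6497 to 8218), ND4 (8298 to 9636), ND4L (9637 to 9927) and ND1 (11882 to 12823) lie on the minus strand. ND4 and ND4L adjoin with 0 bases between them, ND3 begins 67 bases after COX3, and ND6 ends 35 bases before CYTB. All 7 are single-exon genes. Unique reads equalled total reads in 84 of 84 combinations of ND gene and library, so no ND read was counted as matching several places. Strand use in counting was not given in the sources used here, and reads from an ND gene and from a transcript of the opposite strand cannot be told apart.

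Per length, the ND mRNAs differed widely in level. On the scale of the authors' TPM (a transcript abundance that corrects for exon length), ND1 led with 3651 ± 1490 (SD, n = 12 libraries). ND1 encodes the subunit that joins the membrane arm to the peripheral arm near the quinone site. ND4, one of the antiporter-like proton-pumping subunits, followed with 2044 ± 544 TPM and was below ND1 in 12 of 12 libraries. ND3, a small membrane subunit, had 1392 ± 1034 TPM and was below ND4 in 10 of 12. ND5, another antiporter-like subunit, had 736 ± 231 TPM, and ND3 exceeded it in only 8 of 12 libraries, so the order of these neighbours is not separated by their spread. ND2, the remaining antiporter-like subunit, had 395 ± 236 TPM and was below ND5 in 11 of 12 libraries. The small subunits ND4L, at 125 ± 66.1 TPM, and ND6, at 15.6 ± 20.1 TPM, came last in that order in 12 of 12 libraries. ND4L and ND4 adjoin on one strand, yet far more reads per length were counted for ND4. Of ND4L reads, 41.5% to 87.7% were listed as intron reads (described below). The overlapping genes ATP8 and ATP6 had 6.28 and 13592 mean TPM, with a mean 96.9% of ATP8 reads so listed. Whether such gaps are differences in mRNA level was not tested. TPM counts exon reads alone, and on total reads per kilobase the place of ND4L turned: ND4L was above ND2 in 6 of 6 libraries at 10 °C and below it in 6 of 6 at 25 °C. On that scale ND4 exceeded ND3 in 9 of 12 libraries, and the counts for the other neighbours were as on TPM.

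Comparing 10 °C with 25 °C over both sexes, every one of the 7 ND mRNAs had a lower fitted level at 10 °C, and ND3 and ND6 passed the test. The median ND log2 change was -1.25, where the median of all 15027 tested genes was 0.23. The ND mRNAs varied together across libraries (pairwise r from 0.66 to 0.97), so their shared sign is not 7 separate observations. The test was edgeR's quasi-likelihood test on total gene counts with trimmed-mean (TMM) scaling, and a gene was called at a Benjamini-Hochberg adjusted p below 0.05. It called 2 of 7 ND genes, both lower, beside 23.0% of all tested genes called in either direction and 9.31% called lower. Without the adjustment, 4 of 7 had p below 0.05 (ND2, ND3, ND4 and ND6), beside 44.0% of all genes. For 0 of 7 did every 10 °C library lie below every 25 °C library, beside 1.78% of all genes. In bulk samples such as these, fewer cells of a type and less RNA per cell cannot be told apart.

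ND3 fell by 2.31 ± 0.68 on the log2 scale at 10 °C (SE, adjusted p = 0.038, edgeR). In TMM-scaled CPM (reads relative to library size), ND3 had 353, 60.6 and 159 in the female 10 °C replicates 1 to 3, and 494, 184 and 1638 in the female 25 °C replicates 1, 2 and 4. Males had 52.3, 549 and 132 at 10 °C and 1571, 974 and 1930 at 25 °C. Males did not overlap between temperatures, whereas female 25 °C replicate 2 lay within the range of its 10 °C counterparts. The group means were 191 ± 149 against 772 ± 766 CPM in females and 244 ± 267 against 1491 ± 483 CPM in males (SD, n = 3).

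ND6 fell by 3.18 ± 0.88 on the log2 scale (SE, adjusted p = 0.0337, edgeR), and it rests on few reads, 8 to 469 per library. Female libraries held 4.37, 2.03 and 0.444 CPM of ND6 at 10 °C and 10.3, 1.79 and 58.1 CPM at 25 °C. In males they were 0.824, 5.86 and 2.13 CPM at 10 °C and 9.23, 49.9 and 11.2 CPM at 25 °C. Of the 25 °C libraries, female replicate 2 alone fell within the 10 °C range, and female replicate 4 and male replicate 2 stood far above the others at that temperature. ND6 had 2.28 ± 1.98 against 23.4 ± 30.3 CPM in females and 2.94 ± 2.61 against 23.4 ± 22.9 CPM in males.

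The calls of ND3 and ND6 depended on single libraries. Adjusted p (edgeR) ran from 0.0150 to 0.0895 for ND3 and from 0.0123 to 0.0823 for ND6 when each library was left out in turn, and each gene kept its call in 3 of the 12 runs. The share of all genes called in these runs moved from 0.357% to 37.7%. Without female 10 °C replicate 1, 2 of 7 ND genes were called beside 17.1% of all genes, without male 10 °C replicate 2, 5 of 7 beside 34.1%, and without female 25 °C replicate 2, 4 of 7 beside 37.7%. In the other 9 runs 0 were called, beside 0.357% to 11.2% of all genes. Without the 2 libraries that go against their labels, ND3 changed by -2.10 (adjusted p = 0.140, edgeR) and ND6 by -2.84 (adjusted p = 0.123, edgeR), in a fit that called 0.0521% of all genes. Without female 10 °C replicate 2 as well, the log2 changes were -1.60 (adjusted p = 0.368, edgeR) and -2.50 (adjusted p = 0.351, edgeR), beside 0.0126% of all genes called.

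**Figure D1:**
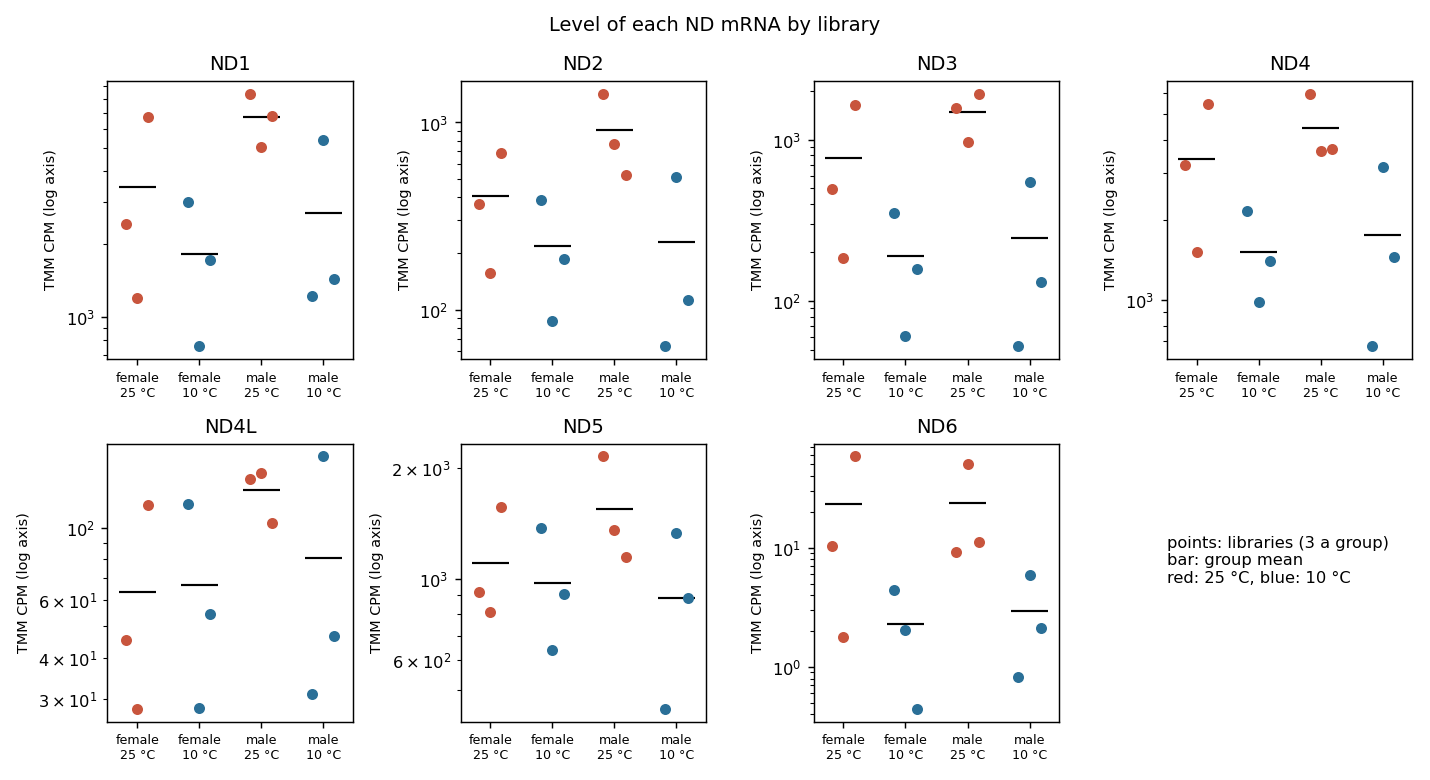
Level of each ND mRNA in each library (points) and group mean (bars), in TMM-scaled CPM on a log axis with its own range per gene, for the 4 groups of 3 libraries. ND3 and ND6 had the largest fitted changes between 25 °C (red) and 10 °C (blue). Even so, female 25 °C replicate 2 lay within the 10 °C range for both, and female 25 °C replicate 1 did so for ND3. ND4L and ND5 overlap widely.

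The antiporter-like subunit genes ND2, ND4 and ND5 were not called. ND4 changed by -1.25 ± 0.44 (adjusted p = 0.056, edgeR), from 3209, 1519 and 5453 CPM in females at 25 °C to 2161, 982 and 1398 CPM at 10 °C. In males ND4 had 5977, 3633 and 3686 CPM at 25 °C and 670, 3162 and 1453 CPM at 10 °C. Male libraries did not overlap between temperatures, and female 25 °C replicate 2 again lay among the cold libraries. ND2 changed by -1.43 ± 0.58 (adjusted p = 0.082, edgeR), with 366, 157 and 690 CPM in females at 25 °C against 384, 86.9 and 185 CPM at 10 °C. Male levels of ND2 were 1426, 771 and 526 CPM at 25 °C and 63.7, 514 and 113 CPM at 10 °C, where the highest cold library came just under the lowest warm one. The smallest change of these 3 was in ND5, -0.49 ± 0.34 (adjusted p = 0.277, edgeR). ND5 had 919, 813 and 1568 CPM in females at 25 °C, 1376, 642 and 908 CPM in females at 10 °C, 2146, 1355 and 1146 CPM in males at 25 °C and 442, 1328 and 888 CPM in males at 10 °C. Its groups overlapped in both sexes.

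ND1 and ND4L were not called either. ND1 changed by -1.12 ± 0.53 (adjusted p = 0.125, edgeR). Female libraries had 2428, 1197 and 6725 CPM of ND1 at 25 °C against 2987, 756 and 1723 CPM at 10 °C, and male libraries had 8381, 5021 and 6761 CPM at 25 °C against 1219, 5417 and 1433 CPM at 10 °C. A single male cold library, replicate 2, reached the warm range of its sex. ND4L changed by -0.31 ± 0.50 (adjusted p = 0.647, edgeR), with 45.4, 27.8 and 117 CPM in females at 25 °C and 118, 28.1 and 54.6 CPM at 10 °C. In males it had 141, 147 and 103 CPM at 25 °C and 30.9, 165 and 46.8 CPM at 10 °C, so the highest ND4L level of all came from a cold library.

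The same few libraries marked the extremes. At 25 °C, female replicate 2 was lowest for all 7 ND genes. At 10 °C, male replicate 2 was highest for 6 of 7, with ND5 the exception, and male replicate 1 was lowest for 4 of 7 (ND2, ND3, ND4 and ND5). Mitochondrial mRNAs as a whole took 9.85% of gene reads in male 10 °C replicate 2, against 4.09% and 7.59% in the other male cold libraries. They took 5.96% in female 25 °C replicate 2, against 6.92% and 11.4% in the other female warm libraries. The part of these library differences in the ND results was not tested.

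**Figure D2:**
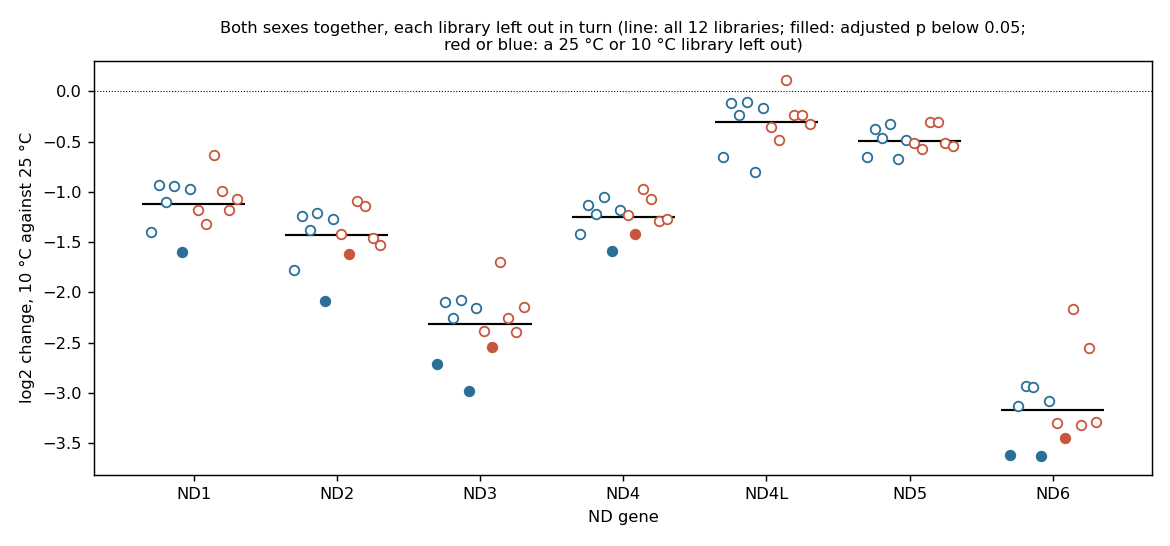
Log2 change of each ND mRNA at 10 °C against 25 °C over both sexes with each library left out in turn (points; red or blue for a 25 °C or 10 °C library left out; filled where the edgeR adjusted p is below 0.05) and with all 12 libraries (lines). ND3 ranged from -2.98 to -1.70 and ND6 from -3.63 to -2.17, and ND4L crossed 0 in 1 run.

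Scaling moved all of these changes together. TMM factors ran from 0.944 to 1.65 in the 10 °C libraries and from 0.588 to 1.17 in the 25 °C libraries, and scaling by library totals alone shifted the median change of all genes by 0.65, from 0.23 to 0.88. ND4L and ND5 then stood at 0.34 and 0.16, a change of sign that came with the shift of all genes. Relative to the median of all genes, the ND changes were -3.41 (ND6) to -0.54 (ND4L) under TMM and -3.30 to -0.54 under library totals, in both cases below that median for all 7. Gene length moved with the change as well. The shortest class of genes, up to 1043 bp of exon and holding 5 of the 7 ND genes, had a median log2 change of -0.22, and the longest class, from 2566 bp, had 0.55. With offsets that remove that trend, ND3 changed by -1.89 (adjusted p = 0.0387, edgeR) and ND6 by -2.57 (adjusted p = 0.0387, edgeR), and ND4L by 0.11. The share of all genes called with these offsets and their median change are not given here. These calls and the sign of ND4L therefore stand without a background.

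In females alone, 0 of 7 ND genes were called, beside 0.0399% of all tested genes. The fitted log2 changes ran from -3.34 ± 1.25 in ND6 and -2.02 ± 0.96 in ND3 to 0.07 ± 0.70 in ND4L (SE). ND1 (-0.92 ± 0.75), ND2 (-0.89 ± 0.81) and ND4 (-1.16 ± 0.61) lay between them, and ND5 stood at -0.17 ± 0.48. Adjusted p-values (edgeR) ran from 0.253 to 0.957, ND6 alone had an unadjusted p below 0.05 (1 of 7, beside 17.2% of all genes), and DESeq2 and limma voom called 0 as well. Without female 25 °C replicate 4, ND3 changed by -0.82 and ND6 by -1.40. Without the 2 libraries the changes ran from -2.85 (ND6) to 0.21 (ND4L), and without 3 from -2.22 to 1.04, with 0 called in either. No ND gene had its 3 female 10 °C libraries all below the 3 female 25 °C libraries, beside 9.14% of all genes. On the authors' TPM, which divides by a total that is not TMM-scaled, the summed ND level was 7537 ± 2216 at 10 °C and 7292 ± 2099 at 25 °C in females.

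In males alone, 0 of 7 ND genes were called by edgeR, beside 0.02% of all tested genes, although every fitted change was negative. ND6 changed by -3.01 ± 1.24, ND3 by -2.61 ± 0.98 and ND2 by -1.98 ± 0.83 on the log2 scale (SE), and these 3 had an unadjusted p below 0.05, beside 32.0% of all genes. ND4 (-1.33 ± 0.62), ND1 (-1.32 ± 0.76), ND5 (-0.81 ± 0.48) and ND4L (-0.69 ± 0.71) were smaller. Adjusted p-values (edgeR) ran from 0.103 to 0.495. DESeq2 called 2 of 7 (ND3 and ND6) where it called 21.6% of all genes. Limma voom, run with a quality weight per library, called 7 of 7 where it called 46.9%. Without male 25 °C replicate 2, ND6 changed by -1.79. Without the 2 libraries the changes ran from -2.82 (ND6) to -0.41 (ND4L), and without 3 from -2.78 to -0.34, with 0 called in either. Leaving out male 10 °C replicate 2 moved ND2 to -3.32, ND3 to -3.99 and ND4 to -2.02, and these 3 were then called beside 20.8% of all genes. All 3 cold libraries lay below all 3 warm ones for 4 of 7 ND genes (ND2, ND3, ND4 and ND6), beside 20.1% of all genes. The summed ND level on the TPM scale was 6934 ± 3367 at 10 °C and 11672 ± 2435 at 25 °C in males.

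**Figure D3:**
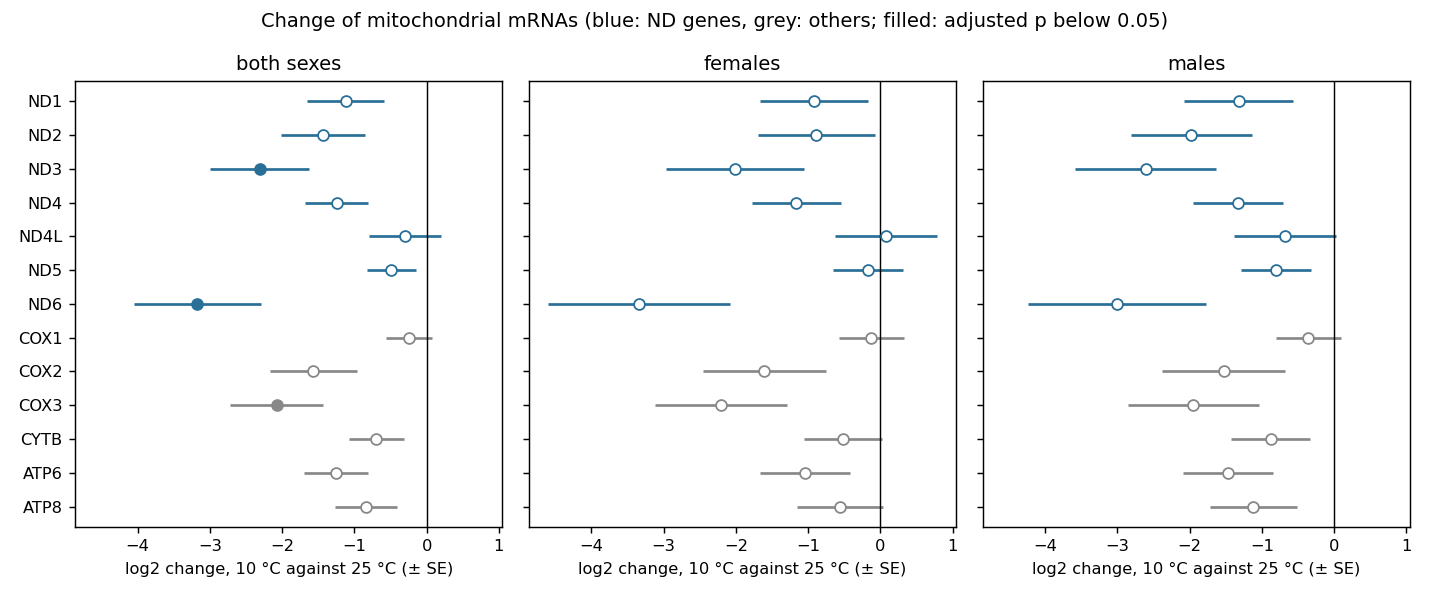
Log2 change at 10 °C against 25 °C for the 7 ND mRNAs (blue) and the 6 other mitochondrial mRNAs (grey), over both sexes, in females and in males (points with SE bars; filled where the edgeR adjusted p is below 0.05). Over both sexes ND3, ND6 and COX3 were called; in either sex alone none of the 13 was.

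The test of whether females and males responded differently called 0 of 7 ND genes, and 0.0% of all genes. The female minus male difference of log2 changes ran from -0.34 ± 1.63 in ND6 to 1.09 ± 1.14 in ND2 (adjusted p from 0.878 to 0.991, edgeR), 0 of 7 had an unadjusted p below 0.05 beside 8.99% of all genes, and DESeq2 and voom called 0. These intervals are wide, and for ND3 the approximate 95% interval ran from -1.96 to 3.15. Without the 2 libraries the differences ran from -0.03 (ND6) to 0.87 (ND2), and without 3 from 0.57 to 1.66, with 0 called. Between the sexes at 25 °C, all 7 ND genes had lower fitted levels in females, from -1.17 ± 0.82 in ND2 and -1.04 ± 0.71 in ND4L to -0.01 ± 1.14 in ND6. The median of all tested genes was 0.13 here, and the ND mRNAs varied together across libraries. The direction of ND6 turned with single libraries, from -1.91 without female 25 °C replicate 4 to 1.15 without male 25 °C replicate 2. Of these, 0 were called, as were 0.0% of all genes (0 of 7 had an unadjusted p below 0.05 by edgeR, beside 22.4% of all genes; DESeq2 called 0, and limma voom 3 where it called 31.0% of all genes). At 10 °C the female minus male differences ran from -0.56 ± 0.75 in ND1 to 0.14 ± 0.48 in ND5, and edgeR called 0 of 7 ND genes and 0.0% of all genes. At 10 °C 0 of 7 had an unadjusted p below 0.05, beside 0.799% of all genes, and DESeq2 and voom called 0. This comparison includes the 3 doubted 10 °C libraries described above. Without 2 of them the differences ran from -0.83 (ND1) to 0.19 (ND5), and without 3 from -0.08 (ND1) to 0.69 (ND5), where 6 of 7 had the sign of a higher level in females. With single libraries left out, ND1 ran from -1.12 to 0.45.

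The other mitochondrial mRNAs stood beside the ND genes as follows. All 6 had lower fitted levels at 10 °C over both sexes, and COX3, a subunit of cytochrome c oxidase, was the one called, at -2.08. COX1, of the same enzyme, changed by -0.24. The ND genes' share of mitochondrial mRNA reads was 7.19% to 10.7% at 10 °C (median 8.89%) and 7.67% to 11.8% at 25 °C (median 9.19%), so the share of the family as a whole overlapped between temperatures.

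Relative to the mitochondrial mRNAs, ND3 and ND6 were lower at 10 °C. In an analysis added after the data were seen, with the total of mitochondrial mRNA reads as library size, ND3 fell by 1.31 ± 0.36 (adjusted p = 0.0322, edgeR) and ND6 by 1.98 ± 0.73 (adjusted p = 0.0493, edgeR). Of all genes, 1.44% were called lower on this scale, where the median change of all genes was 1.41. With that upward shift the share cannot be set beside the 9.31% called lower under TMM scaling. The 1.44% also leaves out genes called higher. ND6 was called at an unadjusted p of 0.0191 (edgeR), so calls in either direction were far more frequent than 1.44%. ND1 (-0.05), ND4 (-0.18) and ND2 (-0.51) were not called. ND4L stood at 0.67 ± 0.29 (adjusted p = 0.0754, edgeR) and ND5 at 0.56 ± 0.25 (adjusted p = 0.0865, edgeR), with the sign opposite to that of the TMM-scaled change. COX3 (-1.0, adjusted p = 0.0322, edgeR) and COX1 (0.79, adjusted p = 0.0396, edgeR) were the other mitochondrial mRNAs called. Without the 2 libraries ND3 stood at -1.22 (adjusted p = 0.0854, edgeR) and ND6 at -1.71 (adjusted p = 0.131, edgeR), and without 3 at -1.02 (adjusted p = 0.406, edgeR) and -1.84 (adjusted p = 0.409, edgeR), where 0% of all genes were called lower. A change on this scale is relative to the other mitochondrial mRNAs, among which COX1 and COX3 hold most reads.

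Ratios between ND mRNAs of one library need no scaling between libraries. They were chosen after the values were seen and are given as a description. ND3 stood at 31.5%, 21.3% and 24.5% of ND1 per kilobase in females at 10 °C and at 11.4%, 27.0% and 24.5% in males at 10 °C. At 25 °C it stood at 54.1%, 40.9% and 64.8% of ND1 in females and 49.9%, 51.6% and 75.9% in males. The ranges, 11.4% to 31.5% and 40.9% to 75.9%, did not overlap, with male 10 °C replicate 1 lowest of all and male 25 °C replicate 3 highest. Of the 21 pairs of ND genes, 3 (14.3%) had ratios that did not overlap between temperatures, beside 8 of 78 pairs (10.3%) among all 13 mitochondrial mRNAs. The other pairs were ND3 to ND4L, at 139% to 273% in the cold and 543% to 1537% in the warmth, and ND2 to ND4L, at 58.9% to 97.2% and 146% to 290%. ND3 relative to its upstream neighbour COX3 overlapped between temperatures, at 3.06% to 5.66% and 4.51% to 8.62%.

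Ratios among the minus-strand neighbours ND5, ND4 and ND4L were higher at 10 °C in the median, with some overlap. For the adjoining ND4 and ND4L these are ratios of counted reads, and whether they reflect separate mRNA levels was not tested. ND4L per kilobase was 25.1%, 13.2% and 18% of ND4 in females at 10 °C and 6.51%, 8.44% and 9.91% at 25 °C. In males ND4L was 21.2%, 24.1% and 14.8% of ND4 at 10 °C and 10.8%, 18.6% and 12.9% at 25 °C. The female ranges did not overlap on this scale, and male 25 °C replicate 2 lay among the cold males. On TPM the female ranges overlapped, since female 25 °C replicate 4 had 5.62% and female 10 °C replicate 2 had 5.43%. ND5 was 32.7% to 51.4% of ND4 at 10 °C (median 50.0%) and 22.3% to 41.7% at 25 °C (median 26.1%).

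**Figure D4:**
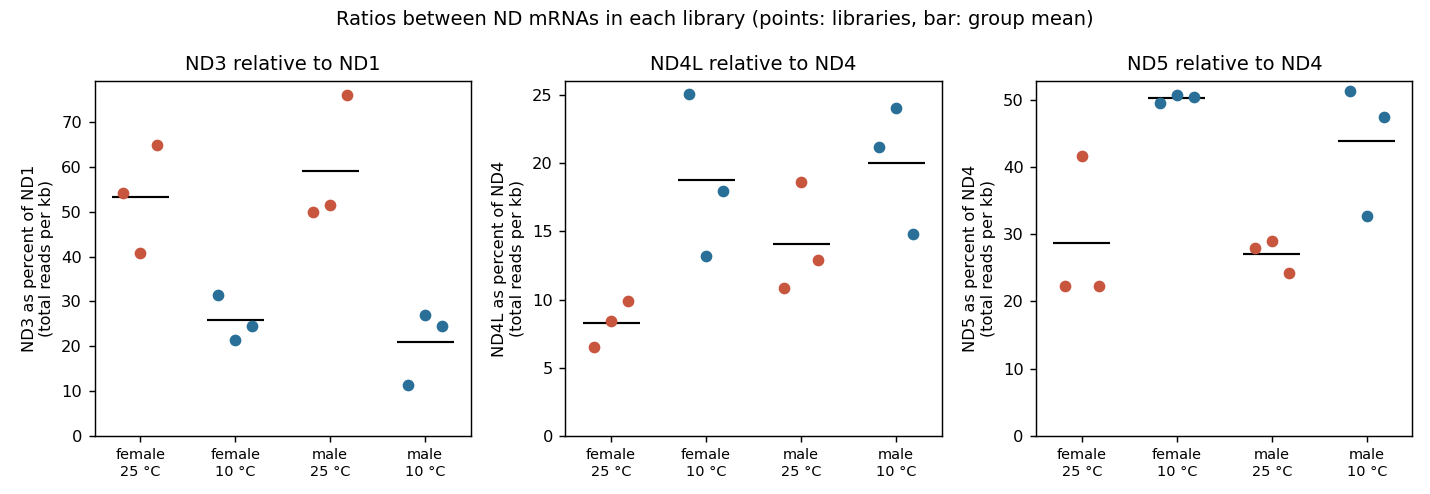
Ratios of ND3 to ND1, ND4L to ND4 and ND5 to ND4 in each library, in percent of total reads per kilobase (points: libraries; bars: group means; red 25 °C, blue 10 °C). ND3 to ND1 did not overlap between temperatures, while the other ratios had overlapping libraries.

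The tables list some reads of these single-exon genes as intron reads, and the share differed by gene. It was 41.5% to 87.7% of reads for ND4L, 6.67% to 50.0% for ND6 and 2.48% to 25.8% for ND3. For ND1 it was 0.526% to 1.90%, for ND2 0.173% to 2.11%, for ND4 0.141% to 1.08% and for ND5 0% to 0.121%. Among the ND genes the shorter ones thus stood apart from the longer ones, by 2.48% against 2.11% at the closest. Length did not order the share on the whole chromosome. COX2 (679 bp) had 0.0272% to 0.104%, and ATP6 (678 bp) had 2.10% to 8.93%. The reason for this listing was not given in the sources used here. On exon reads alone, the fitted change of ND4L in females was -0.21 instead of 0.07, and its female minus male difference at 25 °C was -0.36 instead of -1.04. The authors' TPM values use exon reads alone, so the TPM of ND4L, ND6 and ND3 leaves these reads out.

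**Figure D5:**
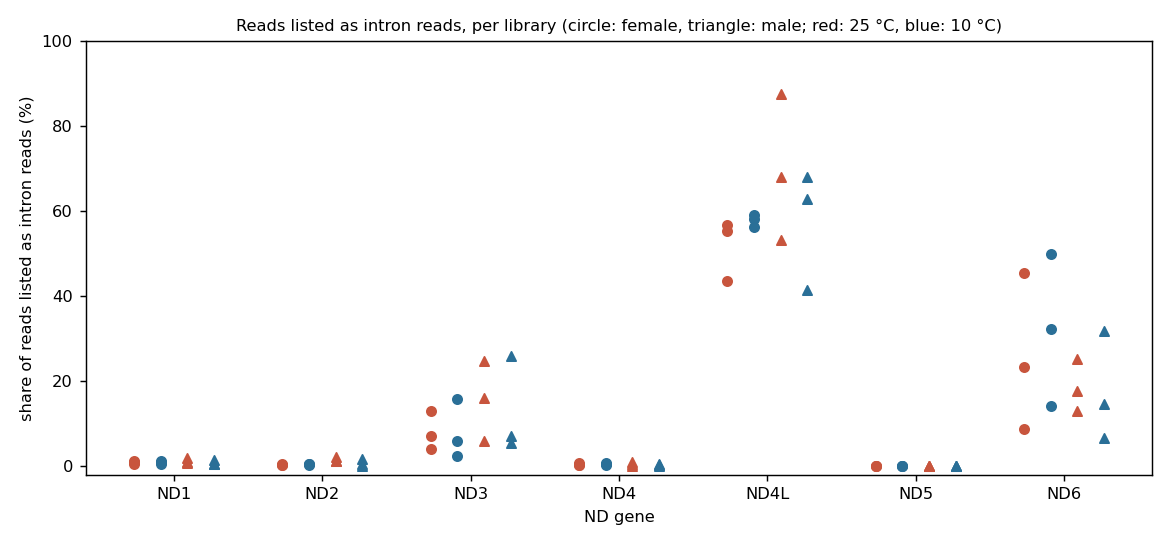
Share of each ND gene's reads that the tables list as intron reads, in percent, per library (circles female, triangles male; red 25 °C, blue 10 °C). ND4L lay between 41.5% and 87.7% and ND5 at or below 0.121%.

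Across the 12 libraries the ND mRNAs varied together. Pearson's r of log2(CPM + 1) between pairs of ND genes ran from 0.66 (ND5 and ND6) to 0.97 (ND3 and ND4), as a description of libraries that share depth, scaling and temperature. The nuclear genes whose pattern was most like the summed ND level were LOC105385386 (r = 0.985), LOC105393696 (0.984), LOC105385484 (0.983), LOC105390559 (0.982) and LOC105397703 (0.982). Among the other mitochondrial mRNAs, r with the summed ND level was 0.985 for COX2, 0.977 for COX3, 0.970 for CYTB, 0.964 for ATP6, 0.848 for COX1 and 0.444 for ATP8.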

How the data were processed

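Libraries were built from poly(A) RNA with the NEBNext Ultra II RNA kit (random priming, paired reads), per the labels' protocols. Which aligner, counter, genome build and annotation were used was not given in the sources used here. As deposited, per the file headers, a table holds whole-number counts of total, unique, exon and intron reads per gene beside the authors' TPM and RPKM. RPKM entered no test. Exon and intron counts summed to the total in 100% of entries.

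Total gene counts were tested with edgeR 4.0.16 in R 4.3.3: TMM scaling, the expression filter (minimum count 10, minimum total 15), and a robust quasi-likelihood fit of 4 group means over all 12 libraries. P-values were adjusted over 15027 genes by the Benjamini-Hochberg method. Standard errors are approximate (the size of the log2 change over the root of F). DESeq2 1.42.0, limma 3.58.1 and other scalings, filters and library sets were alternatives. Limma voom was run with quality weights, which count more variable libraries less, so its calls differ from edgeR's in this respect too. The edgeR step was tested on simulated data. The labels call the libraries biological replicates, and no pair matched within counting noise. Members and lists were chosen with earlier results of these data known, and all 7 members are named. Nuclear complex I genes and mitochondrial tRNA and rRNA were not analysed here.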

Additional observations from a re-analysis of the deposited data

How the results depend on the processing

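In the 3 comparisons of temperature, of 560 values of single ND genes over 27 settings, 479 kept their direction and side of the threshold, 34 changed sign, 25 lost a call and 22 gained one. Of the 21 results pooled here, only ND3 and ND6 over both sexes were called in the main fit. All 25 lost calls came from these 2, and the other results had no call to lose. Over both sexes, where edgeR called 2 of 7, DESeq2 called 4 (beside 36.2% of all genes), limma voom 5 (50.8%), limma on the authors' log2(TPM + 1) 1 (49.7%), and 0 were called without the 2 or the 3 doubted libraries (0.0521% and 0.0126%). Leaving out 1 library gave 0 to 5 calls (0.357% to 37.7%). In males DESeq2 called 2 (21.6%), voom 7 (46.9%) and leaving out 1 library 0 to 3 (20.8% where 3), where edgeR called 0. Between the sexes at 25 °C voom called 3 (31.0%). Same-numbered libraries correlated from -0.739 to 0.573 in their deviations from group means. The lowest value joined the 2 libraries that go against their labels, and the highest joined the female replicates 2. With 3 libraries a group, these values cannot decide whether the numbers pair the samples, and the labels do not say. With the replicate block, 0 of 7 were called over both sexes (0.133%).

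In the temperature comparisons signs changed as follows. Over both sexes, ND4L was 0.34 with library totals, 0.17 with the block, 0.11 with exon-length offsets, 0.71 on TPM, 0.35 without 3 libraries and 0.67 against the mitochondrial total, and ran from -0.80 to 0.12 leaving out 1 library. ND5 was 0.16, 0.43 and 0.56 with totals, TPM and the mitochondrial total. These 3 scalings moved the median of all genes to 0.88, 0.77 and 1.41. Relative to it ND5 stood at -0.72, -0.33 and -0.86, and ND4L at -0.54, -0.055 and -0.74. In females ND1 was 0.13 with the block, 0.21 on TPM and 0.15 against the mitochondrial total (leaving out 1 library, -1.48 to 0.009). ND2 was 0.054 with the block, 0.09 on TPM, 0.068 without 3 libraries and 0.039 against the mitochondrial total. ND4L was -0.21 on exon reads (leaving out 1 library, -0.62 to 0.87). ND5 was 0.55 with totals, 0.045 with voom, 0.24 with the block, 0.80 on TPM, 0.44 without 3 libraries and 0.71 against the mitochondrial total (leaving out 1 library, -0.51 to 0.16). With totals, TPM and the mitochondrial total, the medians of all genes in females were 0.82, 0.83 and 1.03. Relative to them ND5 stood at -0.28, -0.026 and -0.32. The female ND1 and ND2 values on TPM and the mitochondrial total lay below these medians as well. In males, on TPM and against the mitochondrial total, ND4L was 0.53 and 0.29 and ND5 0.061 and 0.40. The male medians were 0.77 and 1.64, and relative to them ND4L stood at -0.24 and -1.35 and ND5 at -0.71 and -1.24. In the other comparisons, 15 of 182 values changed sign for the difference of responses (ND1, ND3, ND4, ND6), 9 of 189 for sex at 25 °C (ND4, ND5, ND6) and 37 of 189 for sex at 10 °C (all 7). Other causes were not tested. Fits against the mitochondrial total, on exon reads and without 3 libraries were added after seeing the data. Depth limits ND6 most, with as few as 8 reads in a library.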
